A study of Mus musculus with 5 samples.

Results

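ATP-dependent chromatin remodellers are protein machines that use ATP to slide, eject or exchange nucleosomes, the histone spools on which DNA is wound. Their families are named after the ATPase at their core: SWI/SNF (in mammals the BAF and PBAF complexes), ISWI, CHD (including the NuRD deacetylase complex) and INO80. Neurons assemble their own form of BAF, in which the actin-like subunit ACTL6B takes the place of ACTL6A, and loss of 1 copy of several of these genes, such as Arid1b or Chd8, is a known cause of neurodevelopmental disorders. The genes were chosen by symbol (names beginning Chd, Smarc, Arid, Ino80, Actl6, Baz or Brd with a number, with Actr5, Actr8 and Mta1 to Mta3) and by a coding sequence (CDS) under 8000 nt. The rule found 49 of 10329 genes in the count table. It left out Chd6, Chd7 and Chd9, whose CDS is longer, and 4 further symbols are listed only in a separate TPM table. By function 39 of them are subunits of a remodelling complex or single SNF2-family proteins. The other 10 share a domain name with such subunits and most do other work, such as the BET bromodomain readers Brd2 and Brd3. Brd8, listed with these 10, is a subunit of the TIP60/p400 complex. The name of the set is thus used for these 39 genes and Brd8. Smarcal1, a fork-remodelling enzyme, is counted among the 39 for its SNF2 family.

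The measurements are ribosome-protected mRNA fragments (footprints) from hippocampal-cortical slices of wild-type C57BL/6N male mice aged 28 to 35 days. Slices of 400 µm recovered for 3 to 4 h and were then held in 20 µM homoharringtonine (HHT), an alkaloid that stops ribosomes at the first steps of elongation while those already under way run off the mRNA. There was 1 library at each of 0, 5, 10, 30 and 60 min of HHT, each from 10 slices pooled from 2 to 3 mice. All 5 are wild type, the vehicle named in the labels is 0.05% DMSO, and no vehicle library at a later time was analysed here, so HHT and time in the bath cannot be told apart. Total counts were 7155147 at 0 min and 1346175 at 60 min, the highest and the lowest of the 5. The 49 genes held 41205, 21301, 17880, 7929 and 6897 counts in time order, with a median per gene of 502 at 0 min and 96 at 60 min. As a share of all counts these genes were 0.576%, 0.764%, 0.884%, 0.527% and 0.512%.

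Values below are of 3 kinds. The signal is the count per kilobase of CDS, taken without 600 nt at its ends and divided by 1 library factor, as in the deposited table. The ratio is the signal at a time divided by the signal at 0 min, given with an exact 95% interval that covers counting error of single libraries only. The log2 changes with p-values come from edgeR's quasi-likelihood test on all genes, with Benjamini-Hochberg adjustment over all genes tested and a threshold of 0.05. In slices, a change in a gene's signal in 1 cell type cannot be told apart from a change in how many such cells were left. The defining markers of neurons were present except Snap25, listed at 0 TPM in every library. The summed signal of 8 neuronal markers in the count table was 0.255 of its 0 min value at 60 min. For 6 astrocyte markers this was 0.141, for 4 oligodendrocyte markers 0.0732, for 6 microglial markers 0.0466, for 2 markers of oligodendrocyte precursors 0.0859 and for 2 endothelial markers 0.140. The 1 choroid plexus marker in the count table had 0.724. The part of these cell types in the values below was not tested.

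Before HHT, the 3 highest footprint signals of the set were those of BAF subunits. The median signal was 471 counts per kb over the 16 BAF and PBAF genes, 268 over the 9 CHD and NuRD genes, 172 over the 6 ISWI genes and 49.7 over the 5 INO80 genes. Smarcb1, a core subunit of BAF and PBAF complexes (chromosome 10, 75896769 to 75921614 in GRCm38), had the highest signal at 0 min, 2278 counts per kb. Smarcd1, another core subunit, followed with 1201, and the neuronal subunit Actl6b with 1082. The median over the 49 genes was 295 counts per kb, against 221 over all 10329 genes.

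The 2 alternative ATPases of BAF were both well covered, Smarca2 (BRM) at 828 and Smarca4 (BRG1) at 566 counts per kb. The separate TPM table orders them otherwise at 0 min, with Smarca2 at 386, above Smarcb1 at 242, and Smarca4 at 57. Of the subunits that mark PBAF, Arid2 had 73.3 and Brd7 had 192 counts per kb, both below the median of all genes. The CHD group was led by Chd4, the main ATPase of NuRD, at 736, ahead of its relatives Chd3 at 312 and Chd5 at 268.

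Apart from Actr8, the INO80 members were thinly read: the ATPase Ino80 itself had 96 counts at 0 min, a signal of 23.5 counts per kb, and only Actr8 of the 5 measured members exceeded 100 counts. The lowest signal of all was that of Baz1a, an accessory subunit of ISWI complexes, at 7.39 counts per kb from 30 counts. Its paralogue Baz1b stood at 313 counts per kb. These are levels of 1 library, so the order of neighbours that differ by less than their counting error has no meaning.

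**Figure D1:**
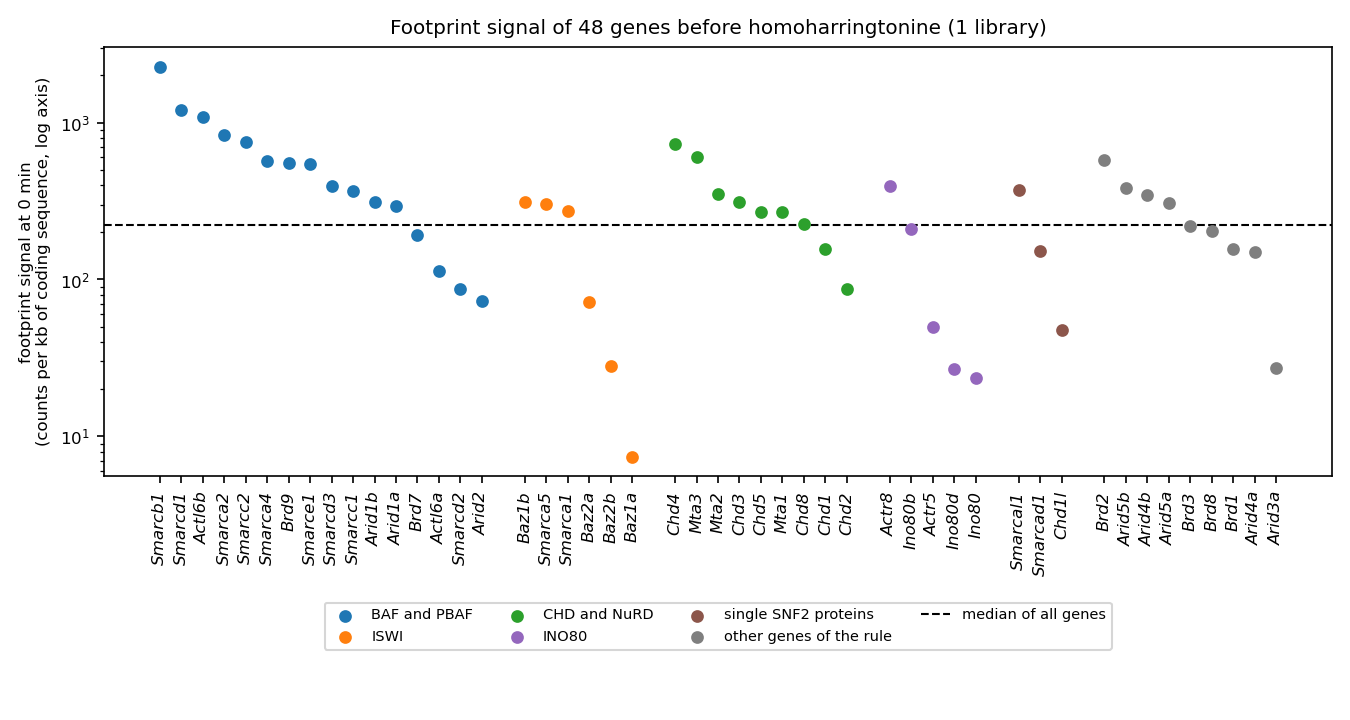
Footprint signal at 0 min (vertical log axis, counts per kb of CDS) for 48 of the 49 genes, 1 point per gene, coloured by role group and sorted within it; the dashed line is the median of all genes at 221. Smarcb1 is highest at 2278 and Baz1a lowest at 7.39.

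Under HHT all 49 genes lost footprints. On the deposited library scale each fell along log2(minutes + 1) (49 of 49 lower, edgeR quasi-likelihood test), where 94.2% of all 9444 genes tested were called lower, so this count does not set the remodellers apart. Their slopes ran from -0.73 (Arid3a) to -0.30 (Actl6b) log2 units per unit of log2(minutes + 1), with a median of -0.44 against -0.41 over all genes. The largest adjusted p was 0.0112 (Baz1a). Relative to other mRNAs, with TMM scaling, no member was called on this slope in either direction. The background there was 0.0106% lower (1 of 9444) and 0% higher, and the lowest adjusted p of a member was 0.288 (edgeR). At an unadjusted p under 0.05 (edgeR) there was 1 member lower (Arid5a) and 0 higher. Of all 9444 genes 518 were lower and 637 higher at that limit. DESeq2's Wald test called 0 members, with 37 of all genes lower and 36 higher after adjustment. When the 0 min library was left out, 17 members were called lower and 1 higher, where 10.1% of 8631 genes were lower and 5.1% higher.

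The ratios of the set parted from those of other mRNAs early and were close to them later. At 5, 10, 30 and 60 min the median of the 49 ratios was 0.490, 0.340, 0.209 and 0.171, against 0.333, 0.268, 0.223 and 0.181 over the whole table. The set thus stood above the typical mRNA at 5 and 10 min and slightly below it at 30 and 60 min. Their CDS is longer, with a median of 3066 nt against 1626 nt for all genes, and within the set the ratio went with length. Spearman's rho between CDS length and ratio over the 49 members in the same order was 0.820, 0.875, 0.467 and 0.297. Over all genes it was 0.700, 0.474, 0.128 and 0.0735. These rhos are descriptions across genes that share the same 5 libraries.

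**Figure D2:**
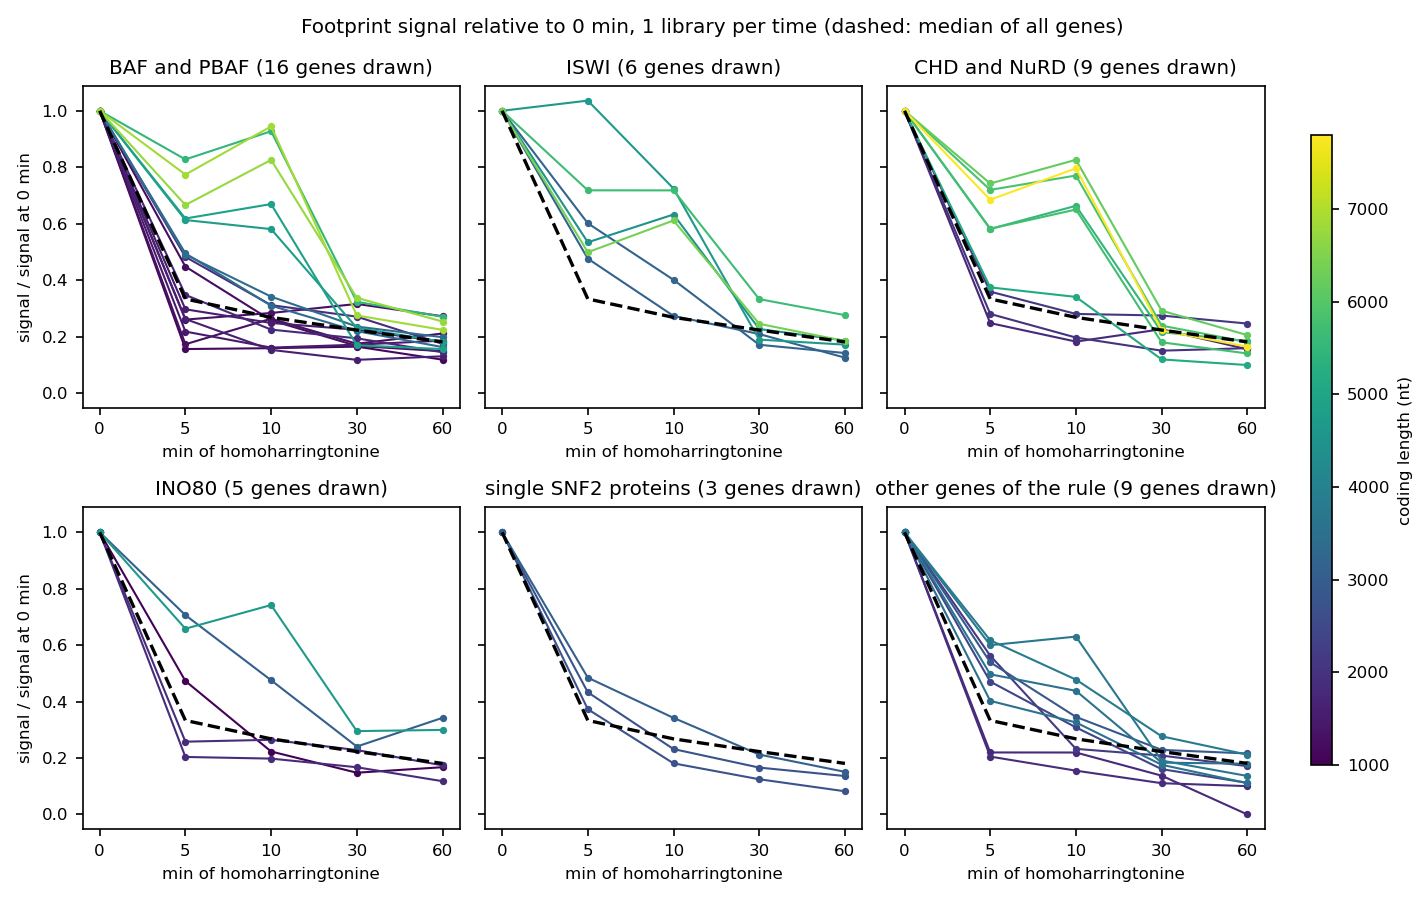
Signal divided by signal at 0 min (vertical axis) at 0, 5, 10, 30 and 60 min (horizontal axis, times evenly spaced) for 48 genes in 6 role groups, coloured by CDS length, with the median of all genes dashed. Apart from Chd1 (0.340), members of 4000 nt or more lie above 0.5 at 10 min, and all of these lie at or below 0.337 at 30 min.

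Many of the longer members lost footprints between the early and the late times. In the 30 and 60 min libraries against those of 5 and 10 min, with TMM scaling, 20 of the 47 members tested were lower and 1 was higher (edgeR quasi-likelihood test, adjusted p under 0.05). The background was 13.1% lower (1131 of 8631 genes) and 5.62% higher (485). The 2 libraries of a phase are different times rather than replicates, and 2 residual degrees of freedom remain. Leaving out 1 library at a time moved the members and the background together. There were 22 members lower against 16.3% of all genes with no 5 min library, and 30 against 23.1% with no 10 min library. With no 30 min library 8 were lower against 3.64%, and with no 60 min library 4 against 1.92%. In the same order 0, 2, 0 and 0 members were higher, against 4.22%, 16.5%, 1.23% and 0.206% of all genes. The genes that were called lower under every alternative run were Smarca4, Chd4, Chd8 and Arid4b. On the deposited library scale 35 members were lower and 0 higher, where 31.6% of all genes were lower and 0.22% higher. Arid1a changed by -1.79 log2 units there and Chd4 by -1.95, against -1.21 and -1.37 with TMM scaling. The log2 changes of single genes between late and early libraries given below are relative to other mRNAs, unless the deposited scale is named. They are not the full loss of signal that the ratios show.

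The share called lower rose with CDS length among members and among all genes. Of members with a CDS of 603 to under 1500 nt 0 of 6 were lower, where 0.583% of all tested genes of that length were. From 1500 to under 2500 nt it was 2 of 12 (16.7%) against 3.69%, and from 2500 to under 4000 nt 4 of 13 (30.8%) against 29.6%. From 4000 to under 5500 nt it was 7 of 8 (87.5%) against 62.6%, and from 5500 to under 8000 nt 7 of 8 (87.5%) against 72.8%. By role, 5 of 16 BAF and PBAF genes were lower, 4 of 6 ISWI genes, 6 of 9 CHD and NuRD genes, 0 of 4 INO80 genes, 0 of 3 single SNF2 proteins and 5 of 9 of the other genes. Over all genes of any length the share was 13.1%. The roles differ in length, with a median CDS of 1875, 4549.5, 5484, 1875, 2733 and 2626.5 nt over their measured genes in that order. Their shares called lower were not compared at like length, so these counts do not set 1 role apart from another.

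**Figure D3:**
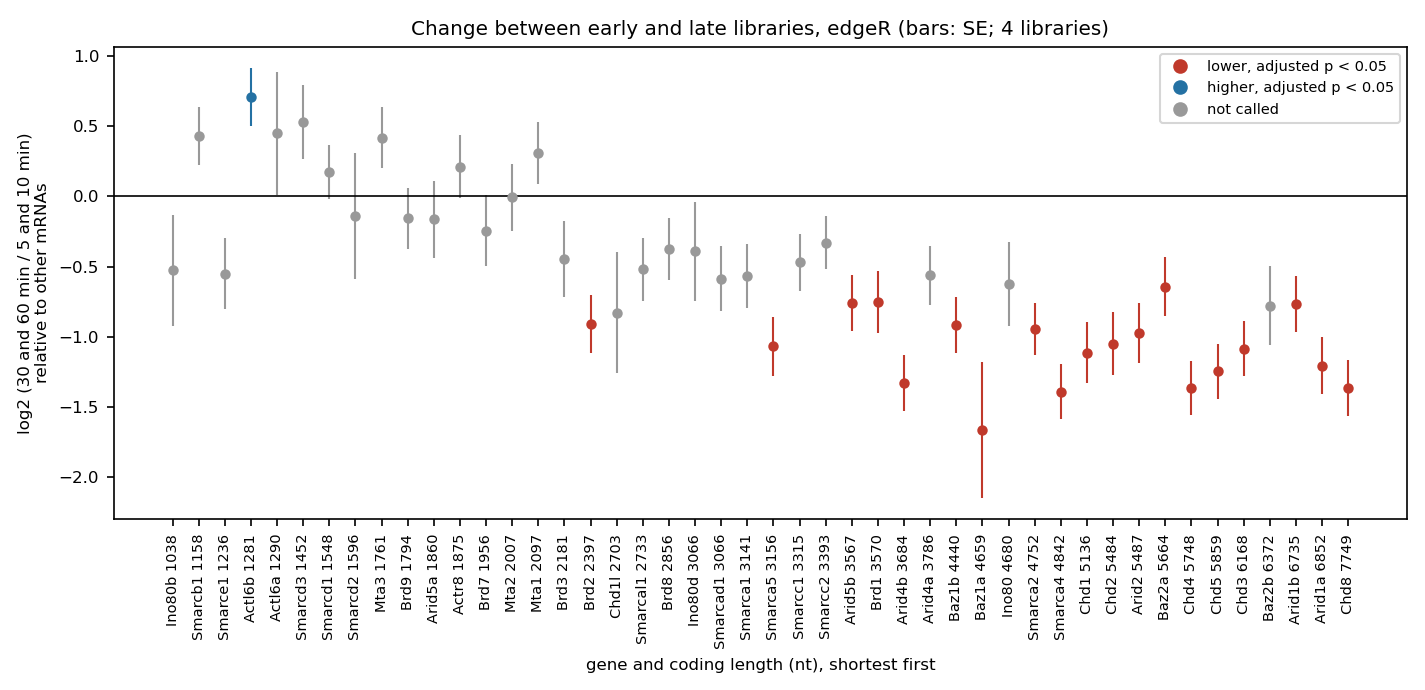
Log2 change between the mean of the 30 and 60 min libraries and that of the 5 and 10 min libraries, relative to other mRNAs (vertical axis; bars are SE of the edgeR fit over 4 libraries), for 46 of the 47 members tested, ordered by CDS length. Red marks 19 of the 20 lower genes, which lie mostly at the long end, and blue marks Actl6b, the 1 higher gene.

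Smarca4 and Smarca2, the alternative ATPases of BAF, show the sequence in full. Smarca4 (chromosome 9, 21616106 to 21704230; CDS 4842 nt) had 2403, 1434, 1332, 358 and 364 counts in time order. Its ratio was 0.618 (0.579 to 0.660) at 5 min and 0.669 (0.626 to 0.716) at 10 min, then 0.169 (0.151 to 0.189) at 30 min and 0.156 (0.139 to 0.174) at 60 min. Nearly all of its later loss therefore lay between 10 and 30 min. Smarca2 (CDS 4752 nt) had 3437, 2033, 1653, 699 and 607 counts, and ratios of 0.613, 0.581, 0.231 and 0.181. From early to late libraries, relative to other mRNAs, Smarca4 fell by 1.39 log2 units (SE 0.20, edgeR adjusted p = 2.36e-05). Smarca2 fell by 0.94 on that scale (SE 0.19, edgeR adjusted p = 6.26e-04). Without the 30 or the 60 min library the call of Smarca2 ended. The ratio of the Smarca2 signal to that of Smarca4 was 1.46 (1.39 to 1.54) at 0 min, 1.27 (1.18 to 1.36) at 10 min and 1.99 (1.75 to 2.27) at 30 min. The intervals at 10 and 30 min do not overlap. Without replicates the difference has no further test. The separate TPM table gives another picture, with 386, 998, 1746, 437 and 450 for Smarca2 in time order. For Smarca4 it lists 57, 118, 135, 40 and 44. By TPM the gap between the 2 genes was wider at every time and widest at 10 min, where the signals were closest. The source of this disagreement was not tested, and the counting intervals do not cover it.

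The ARID subunits, which bind DNA and define the BAF or PBAF form, were among the 5 members with the highest ratios at 10 min, beside Chd3 and Chd8. Arid1a (chromosome 4, 133679008 to 133756769; CDS 6852 nt) had 1842, 1376, 1441, 446 and 401 counts, and its ratio of 0.945 (0.881 to 1.01) at 10 min was the highest of all 49 genes. At 30 min it was 0.275 (0.247 to 0.305). Arid1b (CDS 6735 nt), a gene mutated in Coffin-Siris syndrome, had 1924, 1237, 1316, 572 and 474 counts, with ratios of 0.826 at 10 min and 0.337 (0.307 to 0.370) at 30 min. Arid2 of PBAF (CDS 5487 nt) had 358, 286, 275, 102 and 94 counts and a ratio of 0.928 (0.790 to 1.09) at 10 min. The signals of Arid1a and Arid1b were alike at 0 min (ratio of the signals 0.939, 0.881 to 1.00), and at 30 min Arid1a stood at 0.765 (0.675 to 0.867) of Arid1b. All 3 were lower in the late libraries, by 1.21 (Arid1a, SE 0.20, adjusted p = 1.06e-04), 0.77 (Arid1b, SE 0.20, adjusted p = 0.00731) and 0.98 log2 units (Arid2, SE 0.21, adjusted p = 0.00171; edgeR). Each of these calls ended without the 60 min library, and those of Arid1b and Arid2 also without the 30 min library.

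The short core subunit Smarcb1 had lost most of its signal by 5 min, and its later ratios up to 30 min lay within counting error of that at 5 min. Smarcb1 (CDS 1158 nt) had 1271, 191, 167, 184 and 146 counts, with ratios of 0.156 (0.133 to 0.181), 0.159, 0.164 and 0.118 (0.0988 to 0.140). It was the lowest BAF ratio at 5 min. Smarcd1 (1548 nt) had 1139, 326, 234, 225 and 201 counts and ratios of 0.297, 0.248, 0.224 and 0.181. Its paralogue Smarcd3, which is linked to muscle and neural forms of BAF, had 338, 71, 45, 51 and 61 counts. Smarcd2 had 87, 22, 11, 9 and 11. The paired scaffold subunits Smarcc1 (3315 nt) and Smarcc2 (3393 nt) came between short and long members. Smarcc2 had 2101, 994, 594, 436 and 404 counts, with ratios of 0.490, 0.341, 0.235 and 0.198, and Smarcc1 had 999, 477, 256, 193 and 158, with 0.495, 0.309, 0.219 and 0.162. Neither was called between late and early libraries (log2 changes of -0.33 and -0.47, SE 0.19 and 0.20, adjusted p = 0.229 and 0.108). Smarce1 (1236 nt) had 347, 150, 74, 51 and 50 counts, and at 5 min its ratio of 0.448 (0.367 to 0.544) was above 93.0% of the 300 other genes nearest in length.

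Of the actin-like pair, the neuronal subunit had the higher signal in every library. Actl6b (chromosome 5, 137553361 to 137569582; CDS 1281 nt) had 737, 185, 173, 205 and 195 counts, and Actl6a (1290 nt) had 78, 13, 17, 12 and 16. The Actl6b signal was 9.57 times that of Actl6a at 0 min (7.57 to 12.3) and between 10.3 and 17.3 times at later times, with intervals that overlap that at 0 min. The ratios of Actl6b were 0.260 (0.220 to 0.306), 0.283, 0.316 and 0.272 (0.231 to 0.319), and their intervals overlap. It was the 1 member called higher in the late libraries relative to other mRNAs, by 0.71 log2 units (SE 0.21, adjusted p = 0.0164; edgeR). Of all tested genes of 603 to under 1500 nt 12.4% were called higher, near the 1 of 6 members (16.7%) of that length. On the deposited library scale the change of Actl6b was 0.11 with no call (adjusted p = 0.824). The call also ended with DESeq2 (0.0770) and without the 5, 30 or 60 min library (0.0501, 0.190 and 0.345).

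**Figure D4:**
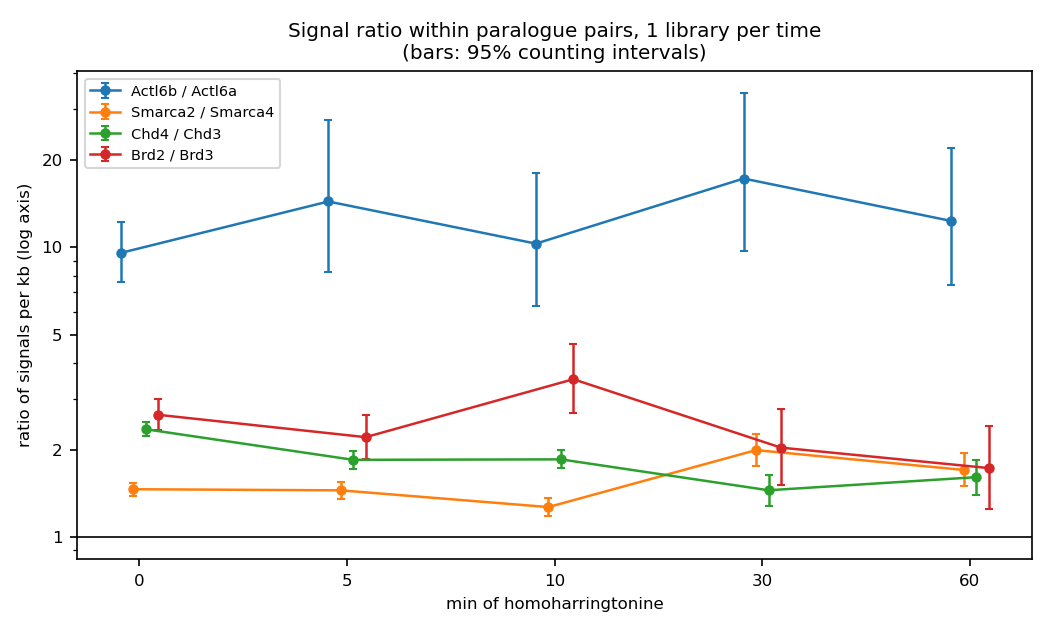
Ratio of the signals of 2 paralogues (vertical log axis; bars are exact 95% counting intervals) at each time (horizontal axis, times evenly spaced), 1 library per time. Actl6b stays about 10 or more times above Actl6a, and the ratio of Brd2 to Brd3 lies between 1.73 and 3.51.

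In the CHD group every ATPase had a higher ratio at 5 and 10 min than the short MTA subunits of NuRD, Chd1 by the least. Chd4 (chromosome 6, 125095980 to 125130591; CDS 5748 nt) had 3787, 2127, 2039, 599 and 516 counts, with ratios of 0.582, 0.650 (0.616 to 0.686), 0.179 (0.164 to 0.196) and 0.140. Chd3 (6168 nt) had 1739, 1246, 1190, 447 and 347 counts and ratios of 0.742, 0.826, 0.292 (0.262 to 0.324) and 0.205. Chd5 (5859 nt), the NuRD ATPase of neurons, had 1412, 981, 901, 297 and 248 counts and ratios of 0.720, 0.771, 0.239 and 0.180. Chd4 kept less than either relative at each time after 0 min. Its signal was 2.36 times that of Chd3 at 0 min (2.22 to 2.49), 1.85 times at 10 min (1.72 to 1.99) and 1.45 times at 30 min (1.28 to 1.64). Chd4, Chd5 and Chd3 were lower in the late libraries by 1.37, 1.25 and 1.09 log2 units (SE 0.19, 0.20 and 0.20 in that order; adjusted p = 2.76e-05, 6.35e-05 and 2.56e-04; edgeR). The calls of Chd3 and Chd5 ended without the 60 min library.

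Chd8 (CDS 7749 nt), a strong autism risk gene and the longest member, had 1617, 1069, 1066, 316 and 258 counts. Its ratio was 0.796 (0.736 to 0.861) at 10 min and 0.222 (0.196 to 0.250) at 30 min, and it was lower in the late libraries by 1.37 log2 units (SE 0.20, adjusted p = 3.45e-05; edgeR). The nearest gene outside the length limit, Chd6 (8136 nt), had 620, 424, 492, 209 and 166 counts and ratios of 0.709, 0.958, 0.382 and 0.275. Chd2 (5484 nt), an epilepsy gene, had 426, 239, 234, 81 and 76 counts and ratios of 0.581, 0.663, 0.216 and 0.183. It resembled its length class, at 55.7% of the 300 nearest genes at 10 min. The MTA subunits have CDS of 1761 to 2097 nt, and none was called between late and early libraries. Mta1 had 401, 139, 93, 97 and 96 counts, Mta2 492, 133, 80, 65 and 76, and Mta3 703, 168, 106, 140 and 106. At 10 min Mta3 had the lowest ratio of the CHD group, 0.182 (0.147 to 0.224). Mta1 kept the highest ratio of the CHD group at 60 min, 0.246 (0.195 to 0.308).

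Chd1, a remodeller of actively transcribed genes that binds methylated histone H3, stood apart from the other long members. It is on chromosome 17 (15704967 to 15772612), and its CDS of 5136 nt lies between those of Smarca4 and Chd2. It had 706, 255, 199, 74 and 68 counts. Its ratios of 0.374 (0.323 to 0.432) and 0.340 (0.289 to 0.399) at 5 and 10 min compare with medians of 0.612 and 0.618 over the 300 genes nearest in length. At 30 and 60 min it had 0.119 (0.0923 to 0.151) and 0.0990 (0.0760 to 0.127), against 0.250 and 0.203. Chd1 was thus above only 3.00%, 3.67%, 4.33% and 5.67% of those genes in time order, the lowest rank of any member over 4000 nt at each time. All 4 ratios are divided by the same 0 min count, so these ranks are not 4 separate observations. The signal at 10 min was 0.910 (0.752 to 1.10) of that at 5 min, against a median of 1.12 over members of 4000 nt or more. From 10 to 30 min the step was 0.349, as was that median, and from 30 to 60 min it was 0.832 against 0.817. It was also lower in the late libraries, by 1.11 log2 units (SE 0.22, adjusted p = 5.77e-04; edgeR), a call that ended without the 30 or the 60 min library.

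The BET readers of acetylated histones Brd2 and Brd3 have CDS of 2397 and 2181 nt. Brd2 had 1045, 475, 267, 148 and 114 counts and ratios of 0.471, 0.309, 0.161 and 0.112. Brd3 had 348, 189, 67, 64 and 58 counts and ratios of 0.563 (0.469 to 0.674), 0.232 (0.176 to 0.303), 0.209 and 0.171. At 5 min Brd3 was above 91.3% of the 300 genes nearest in length and at 10 min above 39.3%. The signal of Brd2 was 2.64 times that of Brd3 at 0 min (2.34 to 2.99), 3.51 times at 10 min (2.67 to 4.65) and 1.73 times at 60 min (1.25 to 2.42), so that the intervals at 10 and 60 min do not overlap. Relative to other mRNAs Brd2 fell by 0.91 log2 units between early and late libraries (SE 0.21, edgeR adjusted p = 0.00222). This call ended without the 30 or the 60 min library. Brd3 was not called, with a change of -0.45 (SE 0.27, adjusted p = 0.257; edgeR).

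Among the 10 genes listed apart from the remodeller groups, Arid4b, a partner of the SIN3 deacetylase complex (3684 nt), had 1069, 619, 558, 180 and 142 counts. Its ratio of 0.630 (0.568 to 0.699) at 10 min was above 87.3% of genes of like length, and it was lower in the late libraries by 1.33 log2 units (SE 0.20, adjusted p = 4.74e-05; edgeR). Arid5a (1860 nt), which also binds and stabilises mRNAs of inflammation, had 389, 77, 50, 38 and 38 counts, and its ratio was 0.100 (0.0700 to 0.140) at 60 min. Arid3a went from 33 to 7, 6, 4 and 0 counts. At 60 min this was 10.7-fold lower if a floor of 3 counts is set in that library. By its counting interval the loss was at least 8.23-fold. These last 2 lie in the lower part of their length class at 5, 30 and 60 min. Brd8 of the TIP60 complex had the highest ratio of this group at 60 min, 0.216 (0.172 to 0.270).

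The ISWI ATPases have nearly the same CDS length, and the ratio of their signals was highest at 10 min. Smarca1 (3141 nt), linked to neuronal maturation, had 690, 317, 156, 127 and 84 counts and ratios of 0.476, 0.273 (0.228 to 0.325), 0.209 (0.171 to 0.253) and 0.125. Smarca5 (3156 nt), the more widely used ATPase, had 777, 451, 258, 117 and 107 counts and ratios of 0.601, 0.401 (0.347 to 0.462), 0.171 (0.139 to 0.208) and 0.141. The Smarca5 signal was 1.12 times that of Smarca1 at 0 min (1.01 to 1.24), 1.41 times at 5 min (1.22 to 1.64) and 1.64 times at 10 min (1.34 to 2.02). It was 0.916 times at 30 min (0.706 to 1.19) and 1.27 times at 60 min (0.943 to 1.71), and both of these intervals overlap that at 0 min. Between late and early libraries Smarca5 fell by 1.07 log2 units relative to other mRNAs (SE 0.21, edgeR adjusted p = 5.20e-04). This call ended without the 30 or the 60 min library. The change of Smarca1 was -0.57 (SE 0.23, adjusted p = 0.0804); the difference between them was not tested.

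Of the accessory ISWI subunits, Baz1b, deleted in Williams syndrome, had 1201, 619, 629, 240 and 217 counts, and Baz2a of the nucleolar NoRC complex had 365, 253, 217, 107 and 98. Baz2a kept the highest ISWI ratio at 60 min, 0.276 (0.218 to 0.346). Baz1a had 30, 30, 18, 5 and 5 counts, so that its ratio of 1.04 at 5 min has an interval of 0.603 to 1.78. Baz2b had 162, 78, 82, 35 and 29 counts and ratios of 0.499, 0.611, 0.245 and 0.184. Between late and early libraries Baz1b fell by 0.92 log2 units (SE 0.20, adjusted p = 0.00168), Baz2a fell by 0.64 (SE 0.21, adjusted p = 0.0323) and Baz1a fell by 1.67 (SE 0.48, adjusted p = 0.0157; edgeR). All 3 calls ended without the 30 or the 60 min library, and that of Baz2a also with DESeq2.

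Ino80 (4680 nt) had 96, 61, 59, 25 and 28 counts, and its ratios of 0.742 (0.527 to 1.04) at 10 min and 0.300 (0.189 to 0.461) at 60 min have wide intervals. Ino80d had the highest ratio of any member at 60 min, 0.342 (0.201 to 0.562), from 66 counts at 0 min and 22 at 60 min. Actr8 had 502, 125, 110, 101 and 85 counts and ratios of 0.258, 0.265, 0.228 and 0.174. No INO80 member of the 4 tested was called between late and early libraries. Among the single proteins, Smarcal1, a fork-remodelling enzyme of replication stress, had 792, 331, 152, 116 and 105 counts, with ratios of 0.433, 0.232, 0.166 and 0.136. Smarcad1 had 374, 175, 106, 70 and 55 counts and ratios of 0.485, 0.342, 0.212 and 0.151. Chd1l, an enzyme of DNA repair that poly(ADP-ribose) activates, had 100, 36, 15, 11 and 8 counts. Its ratio at 60 min, 0.0822 (0.0345 to 0.168), was above 3.67% of genes of like length.

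Set against genes of like length as a whole, the members were near the middle early and low late. At 5 min 25 of 49 had a ratio above the median of the 300 nearest genes, and at 10 min 28 did. At 30 min 14 did and at 60 min 16. By group, 9 of 16 BAF and PBAF genes were above that median at 60 min, 2 of 9 CHD and NuRD genes, 1 of 6 ISWI genes, 2 of 5 INO80 genes, 0 of 3 single SNF2 proteins and 2 of the 10 other genes. These are counts without a test.

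**Figure D5:**
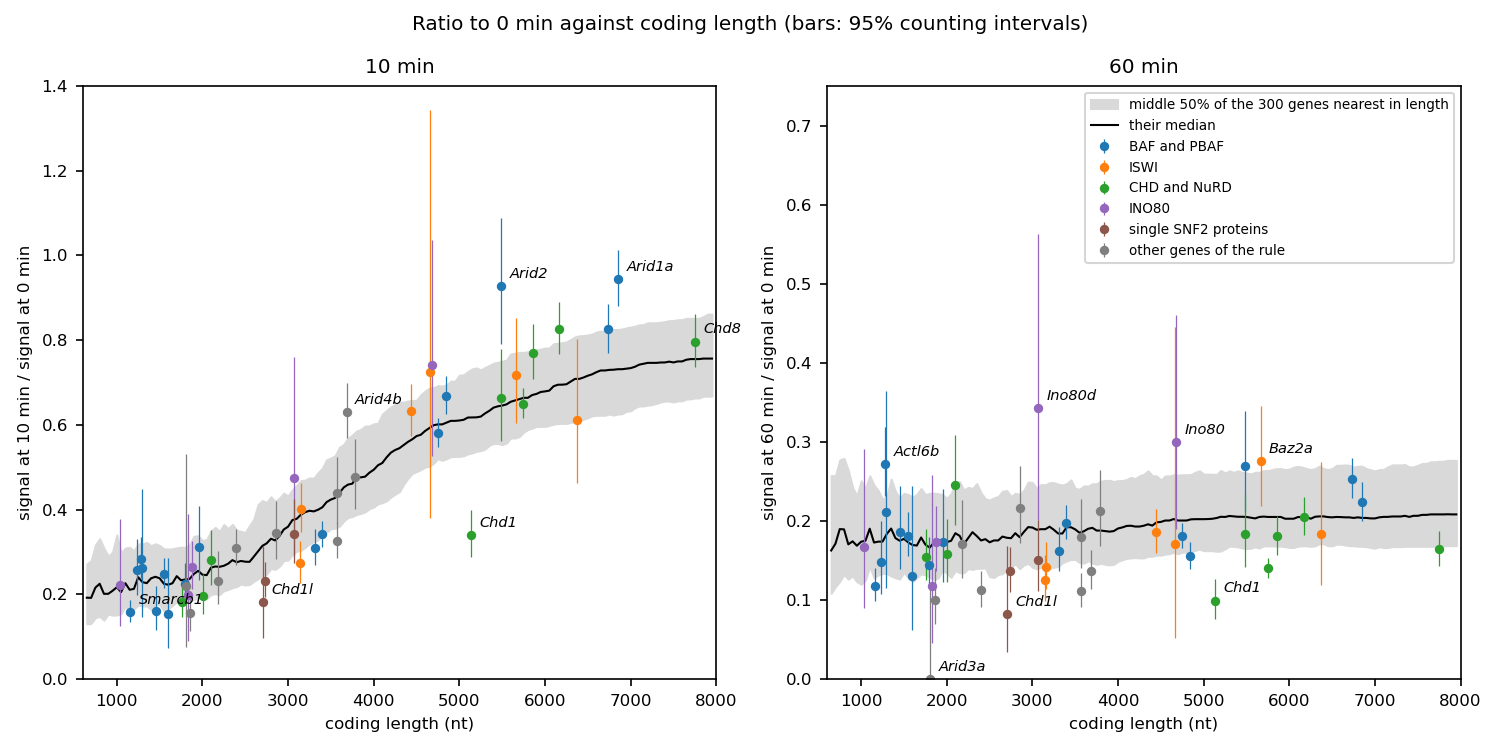
Ratio to 0 min (vertical axes) against CDS length (horizontal axes, nt) at 10 and 60 min for 48 of the 49 members, with exact 95% counting intervals; the line and band are the median and middle 50% of the 300 other genes nearest in length. At 10 min Arid2 (0.928) lies above the band and Chd1 (0.340) below it; at 60 min the line is nearly flat.

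A further feature of long members was a signal that did not fall between 5 and 10 min. Of the 16 members with a CDS of 4000 nt or more, 12 had a higher signal at 10 min than at 5 min, as had 419 of all 756 genes of 4000 to under 8000 nt. The median step was 1.12 over these members and 1.03 over all genes of that length. Counting intervals narrow with depth, and the members had the higher median signal at 0 min. It was 121 against 105 counts per kb from 4000 to under 5500 nt, and 282 against 97.2 from 5500 to under 8000 nt. In 7 of the members the counting interval of the step lay above 1 (43.8%). Over all genes of that length this share was 19.2%, and the shares at like depth were not tested. The largest of these 7 steps were those of Arid1b at 1.24 (1.15 to 1.34) and Arid1a at 1.22 (1.13 to 1.32), followed by Baz1b at 1.18 (1.06 to 1.33) and Chd8 at 1.16 (1.07 to 1.27). No member under 4000 nt had an interval above 1, and in 19 of those 33 (57.6%) it lay below 1. Over all genes of any length 4.56% had an interval above 1 and 27.9% below it. The shares over all genes under 4000 nt were not computed. From 10 to 30 min the interval lay below 1 in 16 of 16 long members, with a median step of 0.349, and in 85.8% of all genes of that length. These steps take the deposited library factors as given, and an error in the factor of 1 library would move every gene alike.

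Of 45 listed partner genes in the count table, 41 were tested between late and early libraries. Of these, 10 were lower and 2 higher, against 13.1% lower and 5.62% higher over all genes; the 10 have CDS of 3327 to 11544 nt. Among BAF partners, Pbrm1, the polybromo subunit of PBAF (5115 nt), had ratios of 0.585, 0.688, 0.285 and 0.193, and Ss18 (1257 nt) had the lowest at 10 min, 0.126. Among ISWI partners Bptf, the large NURF subunit, had 0.940 at 10 min and 0.323 at 30 min, and the histone chaperone Rbbp7 had 0.185 and 0.190. The deacetylase Hdac2 of NuRD had 0.180 at 10 and at 30 min. Trrap, the giant scaffold of TIP60 (11544 nt), had 0.822 and 0.185 and was lower in the late libraries by 1.73 log2 units (SE 0.21, adjusted p = 4.86e-06; edgeR). The 2 partners that were higher there, Ruvbl1 and Uchl5 of INO80, have CDS of 1371 and 987 nt. Of the other SNF2 ATPases Atrx (7431 nt) had ratios of 0.630, 0.883, 0.308 and 0.208.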

How the data were processed

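Footprints of 5 libraries (0, 5, 10, 30 and 60 min of HHT, 1 each) were used. The tools named in the submitters' processing notes are Bowtie2 2.1.0, SAMtools 0.0.19, TopHat2 2.0.9, Trimmomatic 0.32 and cutadapt 1.7.1, with build mm10, and no role or setting is given for them. The authors deposited expected counts per gene over the CDS without its ends (RSEM, per the name of the table), listed as whole numbers and used after rounding, which changed none. The deposited signal equals the count per kilobase of CDS less 600 nt, divided by 1 factor per library (1, 0.965, 0.828, 0.882 and 0.973 in time order), as recomputed from the values. The deposited ratio divides that signal by its 0 min value. A second deposited table holds a score, TPM rounded to whole numbers. The CDS length is that of 1 transcript per gene.

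The main tests used edgeR 4.0.16 in R 4.3.3 with a mean of at least 10 counts in the libraries fitted: a slope on log2(minutes + 1) over 5 libraries with TMM scaling, the same on the deposited library factors, and the 30 and 60 min libraries against those of 5 and 10 min with TMM. Of the 49 members, 49, 49 and 47 passed that filter; Actr5 and Arid3a did not pass it in the last fit. The TMM factors differ from the deposited ones by -1.59, -1.91, -2.14 and -2.45 log2 units at 5, 10, 30 and 60 min, which sets scaled counts higher, so TMM calls are relative to other mRNAs. On simulated counts with changes of 2 log2 units over the range, the slope fit found 93.3% of changed genes (9373 genes) and the late against early fit 99.5% (8670 genes). Those counts followed the fitted model with a fixed scatter, which the real libraries need not do. These shares therefore do not measure how many real changes the tests could find. DESeq2 1.42.0 and the settings of the closing section were alternatives. The tests measure scatter between libraries of different times. Reads carried no stated molecular identifiers, so intervals cover counting error only. Gene positions and names are those of RefSeq GRCm38.p6, the assembly behind mm10, which held all 49 members. Members, lists and tests were chosen with earlier results of these data known. Genes were named by a rule: ATPases and paralogue groups in full, and the highest and lowest ratio at 10 and 60 min in each role group among members with at least 100 counts at 0 min. Values of 1 gene of the set are not reported here; it stays in counts and medians and is left out of the figures.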

Additional observations from a re-analysis of the deposited data

Results flagged for a closer look

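Of the symbols that the naming rule matches, 4 are in the deposited TPM table and not in the count table, so that no comparison used them. Ino80e, a subunit of INO80, had a TPM of 118 at 0 min and 354, 459, 543 and 591 at 5, 10, 30 and 60 min. Arid3b, a DNA-binding protein, had 2, 4, 12, 9 and 14. Both were above the untreated library at each later time, which drew attention to them. TPM is a share of each library's footprints, without replicates, and is not on the scale of the ratios. Ino80c had 77, 38, 53, 96 and 47, and Arid3c was listed at 0 in every library.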

How the results depend on the processing

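Counts of members called were compared with those under each alternative. The slope relative to other mRNAs called 0 members lower and 0 higher, with 0 to 17 lower and 0 to 1 higher when 1 library was left out; both highest counts were without the 0 min library. On the deposited library scale the 49 lower members became 0 on minutes in place of log2 time, and 38 to 49 when 1 library was left out. For late against early libraries, 20 lower and 1 higher became 35 and 0 on the deposited scale and 18 and 0 with DESeq2's Wald test. Leaving out 1 library gave 4 to 30 lower and 0 to 2 higher. Of the 21 calls, 4 held under every alternative. Over all genes that comparison gave 1131 lower and 485 higher, against 2724 and 19 on the deposited scale and 115 higher with DESeq2. Without the 10, 30 or 60 min library it gave 1996 and 1427, 316 and 107, or 168 and 18. The slope relative to other mRNAs called 1 gene lower and 0 higher, against 37 and 36 with DESeq2, and 874 and 440 without the 0 min library. The slope on the deposited scale called 8900 genes lower, 24 on minutes and 4114 without the 0 min library. The median ratios of members became 1.48, 1.28, 0.923 and 0.935 with TMM-scaled counts, which set the typical mRNA near 1. Counts above genes of like length stayed within 1.5 times with 100 or 600 nearest genes. No paired analysis was possible because each time has 1 library and no replicate number. Members with under 100 counts at 0 min, such as Baz1a, Arid3a and Ino80, have wide counting intervals.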
